A study of Mus musculus with 6 samples.

Results

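Smooth muscle cells (SMCs) of the aortic wall hold or lose their contractile state under a small set of transcription regulators, and 10 of these were followed here: Myocd, Srf, Klf4, Klf5, Gata6, Mef2a, Mef2c, Tead1, Foxs1 and Tcf21. They were given as a list of names and were found in the deposited table through their Ensembl gene identifiers, 10 of 52636 genes. RNA of thoracic aorta was sequenced in 6 libraries from male mice 12 weeks of age, 4 labelled WT and 2 labelled KO. WT mice were C57BL/6J and received no treatment. KO mice, called Tgfbr1/2iSMCKO, carried loxP-flanked alleles of Tgfbr1 and Tgfbr2, the Cre transgene Myh11-CreERT2 and an mT/mG reporter on a B6 background. Tamoxifen was given at 11 weeks of age, 2 mg daily over 5 days. The drug activates the Cre recombinase, which the Myh11 promoter places in SMCs, so the other cells of the wall keep both receptors. The transgene sits on the Y chromosome, which limits the model to males. Receptor deletion, transgene, reporter and tamoxifen all differed between KO and WT and cannot be told apart. Libraries of a group were taken as separate mice, since the number of mice given for each group equals that of its libraries.

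SRF binds DNA elements called CArG boxes in the promoters of contractile genes, and myocardin (Myocd), which does not bind DNA by itself, joins SRF there and turns these genes on. SRF joined by ternary complex factors instead drives immediate early genes, and KLF4, the classic antagonist of myocardin, represses the contractile program. GATA6, MEF2 and TEAD factors add to or redirect that program, while Tcf21, a basic helix-loop-helix gene of mesenchymal and adventitial cells, is known from SMCs that have left the contractile state.

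Promoter sequence was searched for motifs of factors in this circuit, where a window was held. RefSeq windows on GRCm38.p6, from 250 bases before to 50 after a transcription start, were held for 5 of the 10 genes (Srf, Klf4, Mef2a, Mef2c and Tcf21, 7 windows in all). Both strands were searched for the CArG box (CC and GG around a run of A and T). They were also searched for the GATA motif AGATAA and for the TEAD motif CATTCC. The CArG box was present in 535 of 32851 windows of all genes (1.63%). Among the members it was found only in Srf, whose own window held a pair of boxes that begin 82 and 62 bases before the start, in chr17:46556205-46556254 on the minus strand. The AGATAA motif, present in 11.2% of all windows, was found in 1 of the 7 member windows (14.3%), that of Tcf21. It begins 31 bases before the RefSeq start, in chr10:22820157-22820186 on the minus strand. The gene span given for Tcf21 below reaches to 22820174, so the motif lies inside that span. The lines for these genes and for contractile and immediate early targets of SRF show the part of the window around the motif, at the coordinates given, with the motif in capitals and the bases around it in lower case.
Srf: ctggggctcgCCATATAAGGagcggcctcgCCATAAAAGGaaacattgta
Tcf21: tctctattccccAGATAAattcttagtgtc
Myl9: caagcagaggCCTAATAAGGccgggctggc
Myl6: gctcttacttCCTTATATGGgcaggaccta
Actg1: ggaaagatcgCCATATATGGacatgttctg
Vcl: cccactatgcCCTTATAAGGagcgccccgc
Egr2: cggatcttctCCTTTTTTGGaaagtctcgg
Myl9 (chr2:156775293-156775322, plus strand), Myl6 (chr10:128493040-128493069, minus), Actg1 (chr11:120348566-120348595, minus) and Vcl (chr14:20929161-20929190, plus) are the contractile targets with a box in their window, and Egr2 (chr10:67537484-67537513, plus) is the immediate early target with one. Windows were held for 20 of 24 contractile and 10 of 14 immediate early genes, so the others were not searched. Boxes that depart from the pattern were not counted. A motif match describes these letters only and says nothing of binding in these aortas.

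Libraries held 19650983 to 28860598 estimated counts. Mitochondrial genes made up between 2.62% and 4.44% of each WT library, 3.38% of KO-1 and 11.7% of KO-2. Summed normalised counts of 9 smooth muscle markers, led by Acta2, were 962688 to 1100255 in WT, 940689 in KO-1 and 1062151 in KO-2, so SMC transcripts were abundant in every library. Markers of tissue around the aorta set the KO libraries apart from each other: summed cardiac markers were 18.8 times the WT mean in KO-1 and 1.94 times in KO-2, and summed brown adipocyte markers were 1.47 times the WT mean in KO-1 and 23.9 times in KO-2. In bulk tissue, fewer cells of a type and less RNA per cell cannot be told apart. The targeted receptors gave no check of the labels: counts here are of whole genes, exons outside the loxP sites included, and cells without Cre keep both genes. Tgfbr1 had a log2 fold change of 0.20 (SE 0.20) and Tgfbr2 of -0.09 (SE 0.18).

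In WT aorta the members spanned a wide range of levels, with SRF highest and KLF5 lowest. Levels are given as normalised counts (counts divided by a library's DESeq2 size factor) per kilobase of merged exons, because genes differ in length. Srf had 1327 ± 87.4 (SD, n = 4) per kilobase, above 96.1% of the 17505 tested genes with a length. Klf4 followed with 655 ± 43.0 (SD, n = 4), above 91.4% of genes. Its range lay below that of Srf and above that of Gata6. Per kilobase, the repressor of the contractile program thus ranked second among these regulators in whole aorta. The rank depends on the division by length, since Mef2a (3044) and Gata6 (2282) had higher WT mean normalised counts than Klf4 (1998). Gata6 (351 ± 39.2), Myocd (305 ± 101), Mef2a (207 ± 23.9) and Foxs1 (190 ± 56.0, all SD, n = 4) made up a middle group in which neighbours in the order had overlapping WT ranges. Mef2c had 74.1 ± 25.9 (SD, n = 4), a range that touched that of Foxs1 and was separate from the next gene. Tcf21 (26.1 ± 6.69) and Tead1 (23.9 ± 13.6, both SD, n = 4) overlapped each other, and Klf5 was lowest with 6.07 ± 1.96 (SD, n = 4) and overlapped none. Klf5 rested on 16 to 39 raw counts per library, so counting error alone is large for it.

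**Figure D1:**
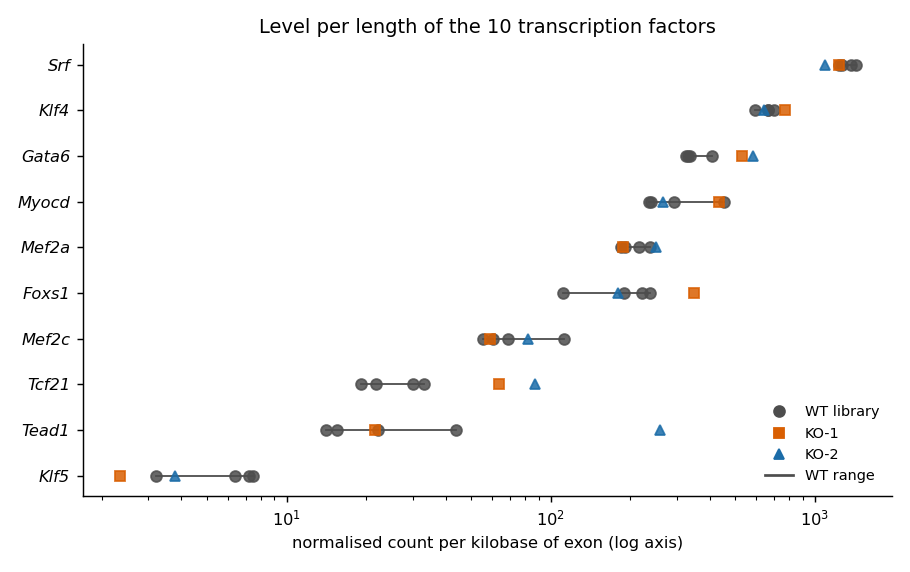
Normalised count per kilobase of exon (log axis) of the 10 transcription regulators, sorted by WT mean, with circles for the 4 WT libraries, a line for their range, a square for KO-1 and a triangle for KO-2. Srf lies highest at a WT mean of 1327, Klf5 lowest at 6.07, and for Gata6 and Tcf21 both KO symbols lie to the right of the WT range.

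The members also differed in how steady they were between WT libraries. Srf and Klf4 varied least, with a coefficient of variation of 6.59% and 6.57%, against a median of 12.0% over the 11447 genes whose mean normalised count reached 100. Gata6 (11.2%) and Mef2a (11.5%) were near that median. Tead1 (57.0%), Mef2c (34.9%), Myocd (33.1%) and Foxs1 (29.5%) were above the upper quartile of those genes, 17.8%. Klf5 (32.3%) and Tcf21 (25.7%) had mean counts under 100 and were not compared with these genes, since counting error adds to their spread. The variable genes were not high in the same library. Myocd was highest in WT-4, at 1.88 times the median of the other WT libraries, whereas Mef2c and Tead1 were highest in WT-1, at 1.86 and 2.81 times. Foxs1, Klf5 and Tcf21 were lowest in WT-4.

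Deletion of TGF-β receptors in SMCs was compared with WT to ask whether the regulators of SMC phenotype change along with the wall. Gata6 and Tcf21 rose in the KO libraries, by 1.59-fold and 2.88-fold, and no member passed the test in the lower direction. Myocd and Klf4, the main activator and the classic repressor of the contractile program, had intervals that included no change. DESeq2 gave the test, with p-values adjusted over all 17537 genes tested: 2 of 10 members passed an adjusted p-value under 0.05, both higher, against 10.1% of all genes in either direction, 5.53% higher and 4.54% lower. Tcf21 was the member that also passed the 2-fold threshold, where the share of all genes was 5.49%, with 3.45% higher and 2.04% lower. At an unadjusted p-value under 0.05 there were 3 members, with Tead1 the third, and 3816 of the 17537 genes tested. The KO libraries lay outside the WT range for 3 members, above it for Gata6 and Tcf21 and below it for Srf, and the same was true of 33.9% of all genes. The median log2 fold change was 0.15 over the members and 0.01 over all genes, and the median size regardless of sign was 0.34 for both. The members' shares are a description beside those of all genes, with no test of the list.

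**Figure D2:**
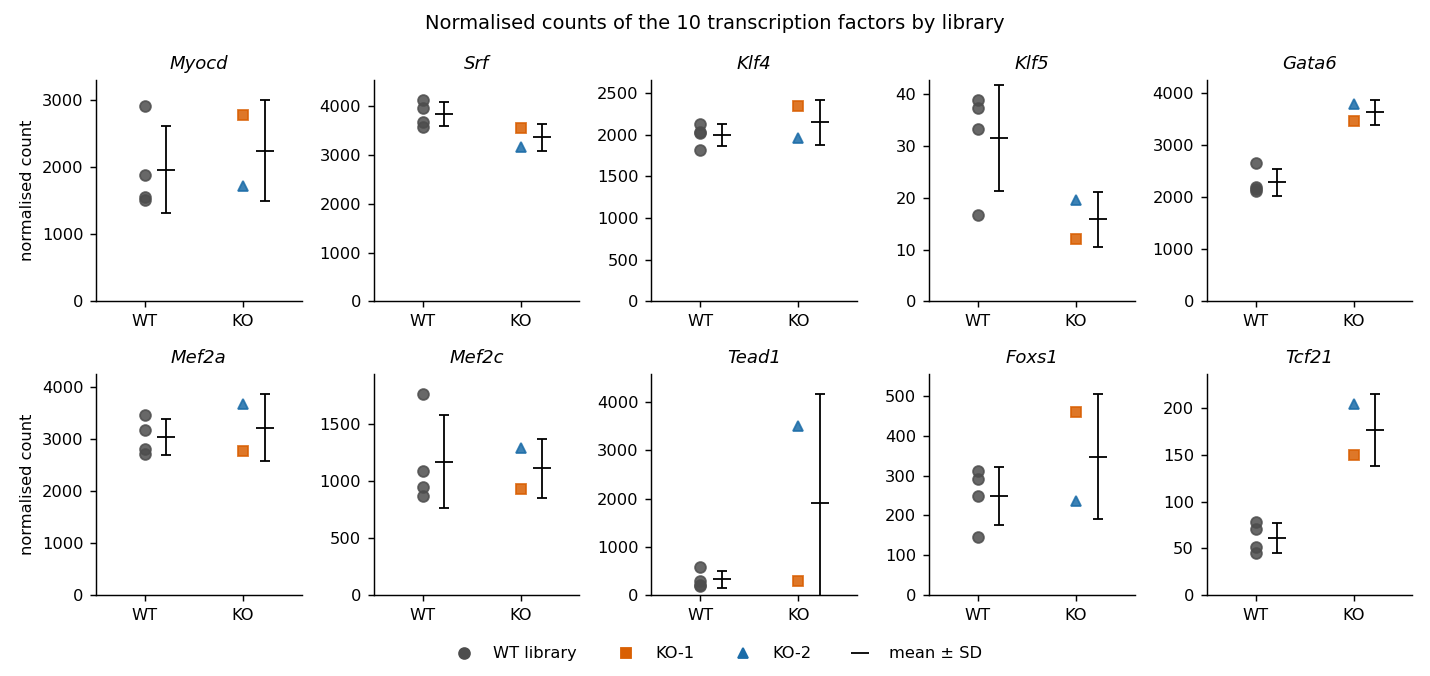
Normalised counts of each of the 10 regulators in every library (circles WT, square KO-1, triangle KO-2), with the mean and SD of each group beside them and axes from 0. Gata6 and Tcf21 have both KO libraries above all WT libraries, Srf has both below, and Tead1 has a KO SD set by KO-2 alone at 3508.

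Srf, the MADS-box factor at the centre of the circuit (ENSMUSG00000015605.5, chromosome 17, 46548329 to 46556175 on the minus strand, GRCm38), had normalised counts of 3680, 4127, 3581 and 3969 in the WT libraries, in the order of their numbers, and 3560 and 3166 in KO-1 and KO-2. Both KO libraries were below the lowest WT library, KO-1 by little. The difference did not pass, with a log2 fold change of -0.19 (SE 0.16, 95% interval -0.50 to 0.12, DESeq2 adjusted p = 0.539).

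Myocd, the SRF coactivator of muscle cells (ENSMUSG00000020542.18, chromosome 11, 65176561 to 65269989, minus strand), had 1545, 1886, 1509 and 2901 in WT and 2776 and 1710 in KO. The groups overlapped, since WT-4 was higher than either KO library and KO-1 higher than the other WT libraries. The log2 fold change of 0.19 (SE 0.29, 95% interval -0.38 to 0.77, DESeq2 adjusted p = 0.776) became -0.20 without KO-1.

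Klf4, a zinc-finger repressor of SMC genes (ENSMUSG00000003032.8, chromosome 4, 55527143 to 55532466, minus strand), had 2128, 2020, 1815 and 2031 in WT and 2340 and 1961 in KO. KO-1 was above the WT range and KO-2 inside it. The log2 fold change was 0.11 (SE 0.17, DESeq2 adjusted p = 0.794), with a narrow 95% interval of -0.23 to 0.44, and it was -0.025 without KO-1. Klf5, a related factor known from proliferating and injured vessels (ENSMUSG00000005148.7, chromosome 14, 99298691 to 99315036, plus strand), had 37.3, 33.2, 38.9 and 16.7 in WT and 12.1 and 19.7 in KO. All values were low, and KO-2 lay above WT-4. The log2 fold change of -1.01 had a wide interval, -2.27 to 0.25 (SE 0.64, DESeq2 adjusted p = 0.379), so neither a large fall nor a small rise could be told from no change at this depth. Per kilobase, Klf4 made up at least 98.8% of the sum of Klf4 and Klf5 in every library.

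Gata6 encodes the main GATA factor of vascular SMCs and other mesoderm-derived cells (ENSMUSG00000005836.8, chromosome 18, 11052064 to 11085635, plus strand). Its normalised counts were 2119, 2151, 2661 and 2197 in WT and 3456 and 3797 in KO. Every KO value was above every WT value, also above WT-3, which stood apart from the other WT libraries. Gata6 rose by 0.67 on the log2 scale (SE 0.17, 95% interval 0.33 to 1.01, DESeq2 adjusted p = 0.00277), from 2282 ± 255 (SD, n = 4) to 3627 ± 241 (SD, n = 2). It passed in 11 of 13 alternative fits, among them each that left out 1 library and both with edgeR, and a test against a 2-fold change was 1 of those it did not pass. In its exons, 93 of 6508 bases overlap a gene on the opposite strand, 1010001N08Rik, whose reads would count for Gata6 if the counting ignored strand.

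Within the GATA family, Gata6 was the main transcript in every library, at 72.7% to 86.7% of the per-kilobase sum of the 6 GATA genes in WT, 79.8% in KO-1 and 75.9% in KO-2. Gata4, a factor of heart and coelomic lining, had 35.1, 26.0, 70.9 and 25.1 in WT and 124 and 189 in KO, and rose by 1.99 on the log2 scale (SE 0.49, DESeq2 adjusted p = 0.00131). Gata4 stayed a minor transcript, with at most 6.31% of the family sum in KO-2. Without KO-2 its change was 1.68, with an adjusted p of 0.143. Gata1 had no counts, and Gata2, Gata3 and Gata5 did not pass. Zfpm1, which encodes the GATA cofactor FOG1, rose from 168 ± 83.5 (SD, n = 4) to 325 in KO-1 and 479 in KO-2, by 1.26 on the log2 scale (SE 0.39, DESeq2 adjusted p = 0.0167). Its call was lost without KO-2 (0.96, adjusted p = 0.331) and without WT-2 (1.13, 0.101), WT-3 (1.19, 0.0722) or WT-4 (1.12, 0.0710).

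Tcf21 (ENSMUSG00000045680.8, chromosome 10, 22817281 to 22820174, minus strand), whose window with the AGATAA motif is printed above, was a low-level gene. Its values were 78.0, 51.2, 70.9 and 44.9 in WT and 149 and 204 in KO, which are 43 to 71 raw counts in WT and 197 and 166 in KO. The groups did not overlap, and the lower KO library was well above the highest WT library. Tcf21 rose by 1.53 on the log2 scale (SE 0.37, 95% interval 0.80 to 2.25, DESeq2 adjusted p = 0.00103). It passed in 10 of 13 alternative fits. Without KO-2 the change was 1.30 with an adjusted p of 0.0841, so the call needed that library, and a test against a 2-fold change was also among the fits it did not pass. Among its basic helix-loop-helix relatives, Twist2, a mesenchymal factor, rose from 155 ± 12.0 (SD, n = 4) to 287 in KO-1 and 232 in KO-2 (0.75 on the log2 scale, SE 0.26, DESeq2 adjusted p = 0.0402). The Twist2 call was lost without KO-1 (0.59, adjusted p = 0.220) and without WT-2, WT-3 or WT-4 (0.71 to 0.77, adjusted p between 0.0680 and 0.0734), and 1477 of its 3174 exon bases overlap an antisense gene, Gm29100. Twist1, with 644 ± 81.1 (SD, n = 4) in WT, and Tcf12 and Tcf3, which encode dimer partners of this class, did not pass.

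Markers of other cells moved with Gata6 and Tcf21. Over all 17537 genes tested, 5.53% passed higher, 17.6% had both KO libraries above WT and 3816 had an unadjusted p-value under 0.05. Of 8 mesothelial markers, which label the lining around organs, all had both KO libraries above WT and 6 passed: their summed level was 698 to 909 in WT, 1515 in KO-1 and 3011 in KO-2. Wt1, a defining gene of that lining, was at 0 in WT-2 and at 47.8 and 134 in the KO libraries, and Krt8 was at 0 in WT-1 and WT-2. Of 8 fibroblast markers, 2 passed, both higher, and their summed level overlapped between groups (88025 to 104357 in WT, 117582 in KO-1 and 85158 in KO-2). Of 8 endothelial markers, 4 passed, all higher, with a summed level of 12730 to 22887 in WT, 32431 in KO-1 and 31378 in KO-2. Both KO libraries were above WT for 6 of these markers and below WT for 1. Of 8 macrophage markers, 6 passed, all higher, with summed levels of 8449 to 10262 in WT, 14464 in KO-1 and 16664 in KO-2. Red blood cell markers (859 to 5990 in WT, 11076 in KO-1, 61684 in KO-2), lymphocyte markers (17.8 to 69.2, 89.5 and 309) and Schwann cell markers (445 to 648, 836 and 772) were also above WT in both KO libraries in sum, as were cardiac markers (816 to 1950, 27441 and 2830). Of these, 4 red blood cell and 5 cardiac markers passed, all higher, and no lymphocyte or Schwann cell marker passed in DESeq2 (2 and 3 had an unadjusted p-value under 0.05). Gata4, known from heart and coelomic lining, was higher in KO-2 than in KO-1. The mesothelial sum had the same order, and the cardiac sum was higher in KO-1. The part of these cells in the rise of Gata6, Gata4 and Tcf21 was not tested.

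**Figure D3:**
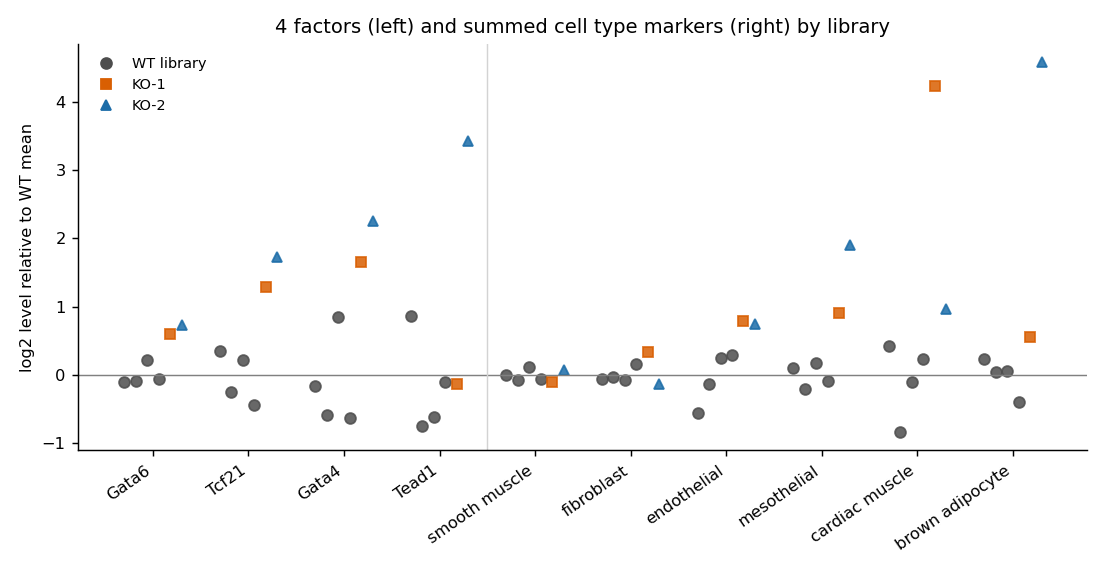
Level of 4 factors and of summed cell type markers in every library, as log2 of the ratio to the WT mean (0 is the WT mean), with circles for WT, a square for KO-1 and a triangle for KO-2. Mesothelial and endothelial sums lie above WT in both KO libraries, as Gata6, Tcf21 and Gata4 do, while Tead1 at 3.43 and brown adipocyte markers at 4.58 stand out in KO-2 and cardiac markers at 4.24 in KO-1.

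Tead1 (ENSMUSG00000055320.17, chromosome 7, 112679318 to 112906807, plus strand), a DNA-binding partner of the Hippo pathway coactivators YAP and TAZ, split the KO libraries. It had 592, 192, 211 and 302 in WT and 294 and 3508 in KO. KO-1 lay inside the WT range and KO-2 was 5.93 times the next highest library and 10.8 times the WT mean. The log2 fold change of 2.55 (SE 1.06, DESeq2 adjusted p = 0.111) therefore describes neither library: relative to the WT mean, KO-1 was at -0.14 and KO-2 at 3.43 on the log2 scale. Without KO-2 the value was -0.13, and without KO-1 it was 3.44 with an adjusted p of 0.000605, where the lone KO library was assumed to vary like the WT libraries.

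A jump of this kind was rare but not particular to Tead1, as a count over genes with a mean normalised count from 100 upward showed. Of the 11447 genes at this mean level or above, 54 (0.472%) had 1 library at least 5 times above all others, 37 of them in KO-2 and 10 in KO-1. The Tead1 jump was smaller than that of 27 of the 37 in KO-2, which were led by Ucp1, the uncoupling protein of brown fat, at 55.8 times the next library. In all, 7 of the 37 belong to the brown and white adipocyte marker lists, and the 37 also include the globin genes Hba-a1, Hba-a2 and Hbb-bs and the antibody gene Igkc. These lists are short, and lipid metabolism genes outside them, such as Elovl6, Scd1, Fasn and Lipe, are also among the 37. The 7 is therefore not a count of all fat genes. Summed brown adipocyte markers were 380 to 587 in WT, 738 in KO-1 and 11981 in KO-2, and summed white adipocyte markers were 2714 to 5294, 5662 and 39631. Red blood cell markers were 22.5 times and lymphocyte markers 7.67 times the WT mean in KO-2. The part of fat, blood or immune cells in the Tead1 value of KO-2 was not tested.

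No other TEAD gene had a jump of 5-fold. Tead4, a minor transcript, had 9.22 per kilobase in KO-2 against 2.61 to 3.89 in WT and 3.80 in KO-1, and did not pass. Tead3, the most abundant family member, made up 80.2% to 83.0% of the per-kilobase sum of the 4 TEAD genes in WT, 79.0% in KO-1 and 50.6% in KO-2, where Tead1 took 41.4%. Tead3 did not pass the test, with a log2 fold change of -0.40 and both KO libraries below WT. Its coactivators Yap1 and Wwtr1 (TAZ) did not pass either, at 0.13 and 0.51. DESeq2 adjusted p-values were 0.0682 for Tead3, 0.0634 for Wwtr1 and 0.799 for Yap1. Of 13 alternative fits, Tead3 passed in 1, Wwtr1 in 2 and Yap1 in 0.

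Mef2a (ENSMUSG00000030557.17, chromosome 7, 67231163 to 67372858, minus strand) and Mef2c (ENSMUSG00000005583.16, chromosome 13, 83504034 to 83667080, plus strand) encode MADS-box factors of muscle and endothelium, Mef2c acting upstream of Myocd. Mef2a had 2715, 2805, 3181 and 3475 in WT and 2763 and 3685 in KO. KO-1 sat at the low end of WT and KO-2 above its top, for a log2 fold change of 0.08 (SE 0.19, 95% interval -0.30 to 0.46, DESeq2 adjusted p = 0.872), which was -0.13 without KO-2. Mef2c had 1761, 869, 1082 and 948 in WT and 926 and 1289 in KO, all inside the WT range. Its log2 fold change of -0.07 (SE 0.29, 95% interval -0.64 to 0.50, DESeq2 adjusted p = 0.927) turned to 0.20 without WT-1, the highest library, and to 0.15 without KO-1. Of the exon bases of Mef2a, 302 of 14681 overlap Lysmd4 on the opposite strand.

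A MEF2 gene outside the 10 fell. Mef2d, the most abundant MEF2 transcript of the aorta, had 4613, 4920, 5058 and 5021 in WT and 2836 and 2991 in KO, with no overlap. It fell by 0.75 on the log2 scale (SE 0.15, DESeq2 adjusted p = 1.95e-05), with 531 of 5985 exon bases shared with an antisense gene, 1700113A16Rik. Its share of the per-kilobase MEF2 sum was 71.8% to 76.7% in WT and 59.8% to 65.0% in KO, and that of Mef2a was 17.2% to 20.8% in WT and 25.8% to 30.0% in KO. Hdac5, a class II deacetylase that binds and represses MEF2 factors, fell by 0.70 (SE 0.22, DESeq2 adjusted p = 0.0165), but its call was lost without KO-2 (-0.40, adjusted p = 0.242) and without WT-1, WT-2 or WT-4 (-0.69 to -0.66, adjusted p between 0.0566 and 0.0876). With total counts as scaling its adjusted p was 0.0638, and Hdac5 passed in 4 of 13 alternative fits.

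Foxs1, a forkhead gene of perivascular mural cells (ENSMUSG00000074676.2, chromosome 2, 152931898 to 152933208, minus strand), had 291, 311, 248 and 146 in WT and 459 and 236 in KO. KO-1 was above every WT library and KO-2 below 3 of them. The log2 fold change of 0.48 (SE 0.36, 95% interval -0.22 to 1.19, DESeq2 adjusted p = 0.469) was -0.07 without KO-1. Of its forkhead relatives, Foxf1, a factor of visceral and vascular mesenchyme, rose from 678 ± 62.0 (SD, n = 4) to 1019 in KO-1 and 982 in KO-2 (0.56 on the log2 scale, SE 0.18, DESeq2 adjusted p = 0.0279). Without KO-1 the Foxf1 value was 0.54 with an adjusted p of 0.0795, and without KO-2 it was 0.60 with an adjusted p of 0.0643. The FOXO, FOXC and other forkhead genes of the list did not pass.

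**Figure D4:**
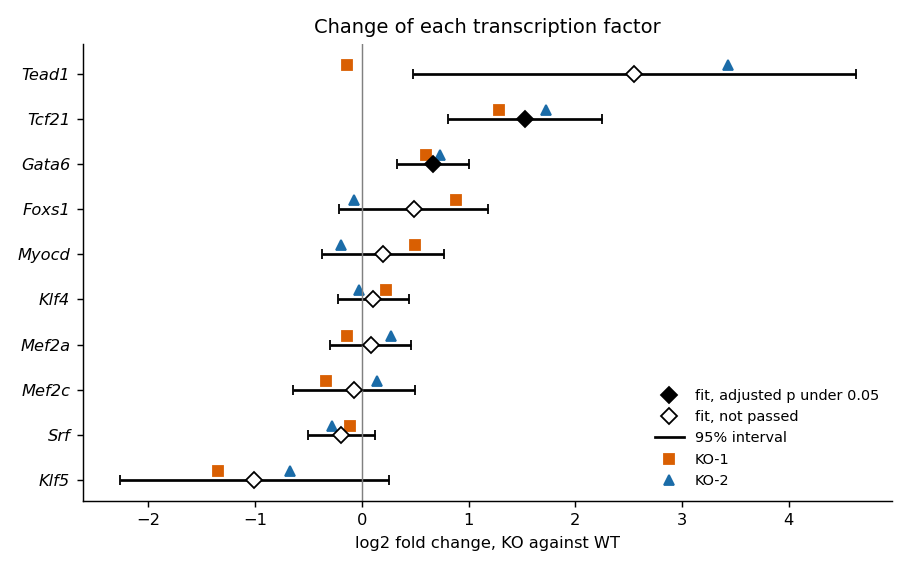
Log2 fold change of KO against WT for each regulator (diamonds, filled where the adjusted p-value is under 0.05, bars for the 95% interval), with KO-1 (square) and KO-2 (triangle) each relative to the WT mean. Gata6 at 0.67 and Tcf21 at 1.53 are filled with both libraries to the right of 0, whereas Tead1, Foxs1, Myocd, Klf4, Mef2a and Mef2c have the KO libraries on opposite sides of 0.

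The output of the circuit was read from contractile targets of SRF and myocardin. Of 24 such genes, none passed the DESeq2 adjusted p-value, and 6 had an unadjusted p-value under 0.05. Over all 17537 genes tested, 10.1% passed and 3816 had an unadjusted p-value under 0.05. With edgeR, with and without a filter, 0 passed as well. Acta2, the smooth muscle actin and the most abundant of them per kilobase, had 397134 ± 33132 (SD, n = 4) in WT and 328092 and 381467 in KO (-0.16 on the log2 scale). Tagln, second per kilobase, had 156673 ± 13116 (SD, n = 4) in WT and 105965 and 129235 in KO, both below WT, at -0.41 (SE 0.17, DESeq2 adjusted p = 0.0997), with 1241 of its 1988 exon bases shared with an antisense gene, Gm48529. It passed without KO-2 (-0.55, adjusted p = 0.0257) and without WT-4 (-0.47, 0.0387), and Cnn1, an actin-binding calponin, passed without WT-4 (-0.43, 0.0440). Cald1 passed in the higher direction without WT-1 (0.75, adjusted p = 0.00208), and Mylk (0.47, 0.0252) and Tpm2 (0.58, 0.0304) without KO-1. The list did not move one way: log2 fold changes ran from -0.41 to 0.51 with a median of 0.13, and 6 genes had both KO libraries above WT and 3 below, where 17.6% and 16.3% of all genes did. Of the 4 targets with a CArG box printed above, the log2 values were 0.12 for Myl9, -0.10 for Myl6, -0.25 for Actg1 and -0.06 for Vcl. That made 4 of 23 contractile windows with a box (17.4%).

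Of 14 immediate early genes, 3 fell, 0 rose and 11 did not pass, with a median log2 fold change of -0.67. SRF with ternary complex factors is 1 input to this class, and its part in these genes was not tested. A CArG box was found in 1 of the 10 genes with a promoter window. Here and for the lists that follow, 4.54% of all genes passed lower and 5.53% higher. With edgeR, 2 of the 14 passed, Fosb and Nr4a1. Fosb, a subunit of AP-1, had 1384, 1025, 637 and 1031 in WT and 312 and 352 in KO, and fell by 1.62 on the log2 scale (SE 0.28, DESeq2 adjusted p = 9.74e-07). Nr4a1, an orphan nuclear receptor, had 3858, 3435, 2444 and 2450 in WT and 1185 and 892 in KO, and fell by 1.55 (SE 0.24, adjusted p = 2.07e-08). Neither overlapped between groups. Atf3, a stress-induced factor, fell by 0.89 (SE 0.24, adjusted p = 0.00585), a call lost without KO-2 (-0.73, adjusted p = 0.161) and with edgeR (adjusted p = 0.0714 with a filter and 0.0760 without). Jun and Mcl1, highest of the list per kilobase, did not pass (-0.53 and -0.17), nor did Egr2 with its CArG box (-0.36). Fos ranged from 636 to 3157 among WT libraries, more than the difference between groups. Clock genes differed beside them, with 3 of 13 higher and 8 lower in KO, and the labels give no time of day for dissection. The part of the time of day in the fall of Fosb, Nr4a1 and Atf3 was not tested.

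Of 23 partner genes tested, 3 rose and 2 fell, and they included the gene with the smallest adjusted p-value of all pathway lists, Csrp2. This gene of a LIM protein, which bridges SRF and GATA factors on SMC genes, was highest of the list per kilobase and had 31973, 30090, 31836 and 29588 in WT and 7769 and 5664 in KO. The WT libraries differed little and both KO libraries lay far below. Csrp2 fell by 2.20 on the log2 scale (SE 0.18, DESeq2 adjusted p = 9.13e-33), or 4.60-fold, and passed in all 13 alternatives. Vgll3, a TEAD cofactor, had 738, 766, 749 and 708 in WT and 1710 and 1154 in KO, and rose by 0.95 (SE 0.21, adjusted p = 0.000171). Smyd1, a methyltransferase of heart and skeletal muscle, was low in WT (6.29 to 15.7) and had 237 in KO-1 and 39.3 in KO-2. Its log2 fold change of 3.80 (SE 0.69, adjusted p = 3.24e-06) was 1.99 without KO-1 with an adjusted p of 0.179, and KO-1 is the library with cardiac markers at 18.8 times the WT mean. The part of heart tissue in Smyd1 was not tested. The myocardin relatives Mrtfa (-0.57) and Mrtfb (-0.09) did not pass, although Mrtfa had 399 in KO-2 against 942 ± 38.6 (SD, n = 4) in WT and passed without KO-1 (-1.24, adjusted p = 1.97e-08). Prdm6, an SMC-restricted repressor, had 2537 ± 153 (SD, n = 4) in WT and did not pass (0.17).

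Among 34 relatives of the members tested, 3 rose and 4 fell. The genes that fell were Mef2d and 3 KLF genes, and those that rose were Gata4, Twist2 and Foxf1. Klf6, an injury-response factor and the most abundant relative per kilobase, had 10412, 11322, 12117 and 11683 in WT and 7340 and 7359 in KO, and fell by 0.63 on the log2 scale (SE 0.15, DESeq2 adjusted p = 0.00068). Klf9, a target of glucocorticoid and clock control, fell by 0.67 (SE 0.21, adjusted p = 0.0199), a call lost without KO-1 (-0.39, adjusted p = 0.184), WT-1 (-0.64, 0.0733) or WT-3 (-0.61, 0.0729). Klf13 fell by 0.48 (SE 0.17, adjusted p = 0.0416), a call lost without KO-2 (-0.35, 0.259) and without WT-1, WT-3 or WT-4 (-0.48 to -0.43, adjusted p between 0.0658 and 0.0866). With total counts as scaling its adjusted p was 0.134, and Klf13 passed in 4 of 13 alternative fits. Klf9 passed in 6 of 13, and neither Klf9 nor Klf13 passed with edgeR. The other KLF genes of the list did not pass, and nor did Klf4, whose 95% interval of -0.23 to 0.44 included 0. The difference between Klf4 and the 3 KLF genes that fell was not tested.

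TEAD target genes changed in a few members. Of 20 genes, 3 fell and 1 rose, with a median log2 fold change of -0.01. Ccn2 and Ccn1, matricellular genes that are also induced by TGF-β and by SRF, were the most abundant per kilobase. Ccn2 had 35695, 45277, 30033 and 49383 in WT and 19763 and 13201 in KO, a fall of 1.28 on the log2 scale (SE 0.24, DESeq2 adjusted p = 7.64e-06), and 665 of its 2861 exon bases overlap Gm15270 on the opposite strand. Ccn1 had 25795, 16957, 14084 and 14158 in WT and 4685 and 8556 in KO, a fall of 1.42 (SE 0.29, adjusted p = 5.12e-05). Both had no overlap between groups. Tead1 was inside its WT range in KO-1 and at 10.8 times the WT mean in KO-2. Its part in the Ccn2 and Ccn1 values was not tested. Gadd45b, a stress and TGF-β response gene, fell by 1.40 (SE 0.25, adjusted p = 1.78e-06). Igfbp3 rose by 1.22 (SE 0.43, adjusted p = 0.0495), a call lost without KO-1 (1.39, 0.115), KO-2 (1.04, 0.363), WT-1 (1.02, 0.105) or WT-2 (1.09, 0.173). The CATTCC motif was in 8 of 18 windows of these targets (44.4%), 39.1% of those of contractile targets and 14.7% of all windows. The share was 27.0% for partners, 21.4% for immediate early targets and 20% for relatives of the members. It was 16.7% for genes of SMCs that have left the contractile state and 5.88% for clock genes. Of the 7 member windows, 1 held the motif (14.3%).

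Genes known from SMCs that have left the contractile state did not move as a group, with 3 of 19 higher, 5 lower and a median log2 fold change of 0.34. Col8a1, a short-chain collagen of injured vessels, had 281, 298, 253 and 279 in WT and 981 and 1002 in KO, and rose by 1.84 on the log2 scale (SE 0.19, DESeq2 adjusted p = 7.91e-19). Lum, a proteoglycan gene that is also a fibroblast marker, rose by 0.997 (SE 0.19, adjusted p = 4.85e-06). Cd34, a marker of endothelium and adventitial progenitors, rose by 0.63 (SE 0.18, adjusted p = 0.00782), a call lost without KO-1 (0.46, 0.0920). Mgp, an inhibitor of calcification and the most abundant of the list per kilobase, had 60372, 59500, 55134 and 51151 in WT and 16868 and 15985 in KO, and fell by 1.78 (SE 0.15, adjusted p = 1.17e-28). S100a4 (-0.82), Fn1 (-0.75) and Myh10 (-0.68), which encode a calcium-binding protein, fibronectin and a non-muscle myosin, also fell, with adjusted p-values of 2.77e-05, 0.000118 and 0.000994. Bgn, a proteoglycan gene second per kilobase, fell by 0.70 (SE 0.24, adjusted p = 0.0394), with 74905 in KO-1 and 141525 in KO-2 against 175196 ± 15195 (SD, n = 4) in WT. The Bgn call was lost without KO-1 (-0.31, 0.248) and without each WT library in turn (-0.74 to -0.64, adjusted p between 0.0647 and 0.128). Col8a1 and Mgp passed in all 13 alternatives.

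**Figure D5:**
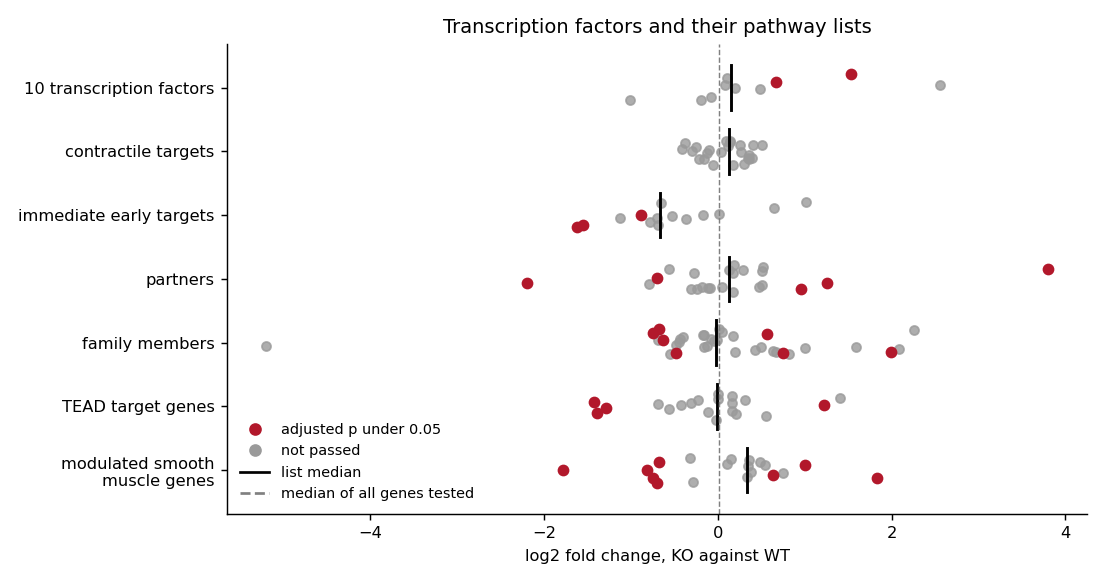
Log2 fold change of KO against WT for each gene of the 10 regulators and of 6 pathway lists, 1 point a gene, red where the adjusted p-value is under 0.05, with a black bar at each list's median and a dashed line at the median of all genes. Contractile targets hold no red point, red points among immediate early targets are all below 0, the red points of the 10 regulators are both above 0, and the other 4 lists hold red points on both sides.

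Genes with the pattern most like Gata6 and Tcf21 over the 6 libraries were sought among the same 11447 genes, by Pearson's r of log2 values, as a description in which the points share libraries and the group difference. For Gata6 these were Icam1 (r = 0.994), an endothelial and leukocyte adhesion molecule that rose by 0.67 on the log2 scale (DESeq2 adjusted p = 0.00788), Ttc9c (0.994) and Gnaq (0.993), which did not pass. For Tcf21 they were Mrpl32 (0.994), a mitochondrial ribosomal protein gene, Stmn2 (0.992) and Dhx40 (0.988). Mrpl32 and Stmn2 passed (0.76 and 0.89 on the log2 scale), and Dhx40 did not.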

How the data were processed

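RNA of mouse thoracic aorta was measured in 6 libraries, 4 WT and 2 KO. The authors trimmed reads with Trim Galore, mapped them to GRCm38 (mm10) with HISAT2 and estimated gene expression with StringTie on GENCODE annotation. What the authors deposited are estimated counts for each gene, in whole numbers and not scaled for depth. Strand use in counting was not given in the sources used here. Column codes were matched to libraries by inference: the code running from 1 to 4 was taken as WT, the other, running from 1 to 2, as KO.

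DESeq2 1.42.0 (R 4.3.3) compared the groups in a Wald test over all genes of the table, with default size factors and filtering and Benjamini-Hochberg adjustment. Passed means an adjusted p-value under 0.05, and called adds a fold change above 2. Total counts ran from 19650983 to 28860598, and 27151 of 52636 genes had 0 counts throughout. Ratios of single libraries to the WT mean used a pseudocount of 0.5. Positions and lengths came from GENCODE M21 on GRCm38, which matched 52403 identifiers. Alternatives were edgeR 4.0.16, other scalings and filters, a 2-fold null, a replicate block and each library left out. Pairs of libraries in a group differed by more than sampling noise, the KO pair most. Chi-square per degree of freedom was 34.5 to 61.2 for WT pairs and 172 for KO-1 against KO-2.

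Members and gene lists were chosen with earlier results of these data known. All members were named in every library. List genes were named where they passed or were the most abundant per kilobase, and for a member that passed, the 3 most correlated genes. Other list genes and markers in the text were chosen after their values were seen.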

Additional observations from a re-analysis of the deposited data

Results flagged for a closer look

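Among 24 sets of 4 WT values that were checked for a library standing apart (the 10 members, the summed marker and clock lists and the mitochondrial share), 1 was found, where chance gives about 1.2. Gata6 was 2661 in WT-3 against 2119, 2151 and 2197 in the other WT libraries, a gap of 0.856 of the whole WT range. Both KO libraries, at 3456 and 3797, were above WT-3 too.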

How the results depend on the processing

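Over 13 alternative fits, Gata6 kept its direction with log2 fold changes of 0.61 to 0.76 and passed in 11, and Tcf21 ran from 1.30 to 1.74 and passed in 10. The test against a 2-fold change gave 115 genes called over all genes and 0 members passed or called, with 0 immediate early targets, 2 partners, 0 family members, 0 TEAD target genes and 2 modulated genes. Libraries of the same replicate number did not deviate together (r = -0.087 for number 1 and 0.014 for number 2), so the numbers pair nothing. With the replicate number as a block, 562 genes were called, 0 members passed or were called (Gata6 0.76, adjusted p = 0.0970, and Tcf21 1.46, adjusted p = 0.245), and 6 immediate early targets, 2 partners, 1 family member and 4 modulated genes passed. edgeR called 633 genes with its filter, and 2 immediate early targets, 3 partners and 3 family members passed with and without it. Leaving out 1 library at a time gave 636 to 1282 called genes, 1 to 3 members passed, 0 to 2 members called, 0 to 2 contractile targets and 3 to 5 partners passed. The direction reversed in part of these fits, whose log2 fold changes ran from -0.20 to 0.51 for Myocd, -0.025 to 0.24 for Klf4, -0.13 to 0.28 for Mef2a, -0.32 to 0.20 for Mef2c, -0.13 to 3.44 for Tead1, -0.075 to 0.89 for Foxs1, -0.33 to 0.47 for Myl9, -0.12 to 0.43 for Lmod1, -0.23 to 0.43 for Yap1 and -0.29 to 0.031 for Mrtfb, which was 0.35 with the block. None of these passed in either direction, except Tead1 without KO-1. The cause was not tested. Fits without a KO library assume that the lone one varies like WT. With 2 KO libraries, low genes such as Klf5 have wide intervals.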
